A study of Homo sapiens with 4 samples.

Results

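The SNARE genes encode the proteins that fuse transport vesicles with their target membranes, and 42 of them were followed in K562 cells given SF1-8 or its solvent. The members were taken by gene symbol: the VAMP and syntaxin (STX) genes with a number, SNAP23, SNAP25, SNAP29, SNAP47, the SEC22, GOSR, BET1 and VTI1 genes, YKT6, USE1 and BNIP1, together with the SNAP adaptors NAPA, NAPB and NAPG. Each symbol was matched to the entry of the deposited table with the highest mean count, which gave 42 of the 62778 entries that name a gene. K562 is an established human erythroleukemia line, and the cells of all 4 libraries carried the same change, overexpression of the U2AF1 S34F mutant, so a line with wild-type U2AF1 was not part of the comparison. The 2 control libraries came from cells given DMSO and the other 2 from cells given SF1-8 at 30 μM for 48 h. SF1-8 is a small molecule directed at the UHM domain, through which the splicing factor U2AF1 binds its partner U2AF2. How the mutant was driven, and whether the line is a single clone, is not given in the sources used here. The labels do not say that libraries of a group came from separate cultures, so the p-values measure only the spread between these libraries. In bulk RNA, fewer cells of a type and less RNA per cell cannot be told apart.

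Total counts ranged from 45522905 in DMSO 1 to 67554610 in SF1-8 1, and DMSO 1 had the smallest depth. The label of the line was checked against 11 erythroid markers (globins, GATA1, TAL1, KLF1, TFRC and ALAS2), which fall on 8 entries. Levels are in FPKM, a unit in which reads are scaled to gene length and library depth. The summed level of the 8 was 373 and 366 FPKM in DMSO 1 and DMSO 2, and 337 and 358 FPKM in SF1-8 1 and SF1-8 2. All 8 entries had a log2 fold change below 0, between -0.149 and -0.0050, and none had an unadjusted p under 0.05 between the groups. Of 10 fibroblast markers, 9 were tested, and 5 of the 9 were lower with SF1-8 at an unadjusted p under 0.05 (COL1A2, COL3A1, DCN, LUM and PDGFRB). The paper counts COL1A1, COL1A2 and COL3A1 among the genes that SF1-8 down-regulated in these cells. The summed level of the 10 was 13.6 and 8.23 FPKM in DMSO 1 and DMSO 2, and 6.06 and 4.26 FPKM in SF1-8 1 and SF1-8 2. In that order, 0, 1, 2 and 4 of the 10 markers were at a count of 0. COL1A1 gave 5.39 and 2.60 FPKM of this sum with DMSO and 1.21 and 0.0982 FPKM with SF1-8. PDGFRA, whose entry also names FIP1L1, gave 3.33 and 3.22 FPKM of it with DMSO and 3.48 and 3.67 FPKM with SF1-8. PDGFRA and THY1 were the 2 tested markers with a log2 fold change above 0, at 0.15 in each. The part of these markers in any result on the SNARE genes was not tested.

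As background, fusion starts when a SNARE on the vesicle meets SNAREs on the target membrane, and their helical motifs wind into a tight bundle that pulls both membranes together. SNAREs are classed by the residue at the centre of the motif. R-SNAREs, such as the VAMP proteins, usually ride on the vesicle, while Qa-SNAREs (most syntaxins), Qb-SNAREs and Qc-SNAREs often, but not always, sit on the target membrane. The Qbc-SNAREs of the SNAP25 family carry a pair of motifs in 1 protein. After fusion the ATPase NSF, held to the bundle by the SNAP adaptors, pulls it apart so that its parts can be used again. Each fusion step in the cell, from the endoplasmic reticulum to the lysosome and the plasma membrane, draws on its own set of these proteins.

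At the level of mRNA, the R-SNAREs of general and endosomal traffic were the highest. YKT6, a lipid-anchored SNARE of the Golgi and the autophagosome, had FPKM values of 26.3 and 25.1 in DMSO 1 and 2 and of 25.7 and 25.4 in SF1-8 1 and 2. VAMP8, which serves late endosomes and lysosomes, had 24.0 and 19.2 FPKM with DMSO and 19.4 and 23.3 FPKM with SF1-8. VAMP3, the SNARE of recycling endosomes, had 20.1 and 19.4 FPKM with DMSO and 21.1 and 22.4 FPKM with SF1-8. The ranges of VAMP8 and VAMP3 overlapped over the 4 libraries, so their order was not settled, whereas the lowest value of YKT6 lay above the highest of VAMP8. SNAP29, a Qbc-SNARE of endosomes and autophagosomes, followed with 17.4 and 16.1 FPKM with DMSO and 17.0 and 18.5 FPKM with SF1-8, and then the Golgi Qc-SNARE BET1L with 14.1 and 13.8 FPKM against 15.2 and 14.9 FPKM. VAMP7 and STX3, both with 1 library far from the other 3, completed the 7 genes with a mean above 10 FPKM.

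A further 28 members had a mean between 1 and 10 FPKM, and 7 were below 1 FPKM. The low group held some of the SNAREs known for nerve terminals and for specialised secretion, but not all. STX1A, a syntaxin of the synapse, had 1.21 and 1.32 FPKM with DMSO and 1.07 and 0.977 FPKM with SF1-8. VAMP2, whose entry takes in PER1, had 3.48 to 3.67 FPKM over the libraries. SNAP25, the Qbc-SNARE of synaptic vesicle release, had a count of 0 in all 4 libraries and was the only member not tested. VAMP1, a synaptic R-SNARE, stood at 0.593 and 0.916 FPKM with DMSO against 0.779 and 0.919 FPKM with SF1-8. STX11, known from killing by lymphocytes, lay between 0.117 and 0.158 FPKM. Counts of VAMP5, a SNARE of muscle, were 0, 14, 27 and 6 in DMSO 1, DMSO 2, SF1-8 1 and SF1-8 2. The late endosomal Qc-SNARE STX8 was low as well, at 0.521 to 0.808 FPKM, beside its usual partners STX7 at 2.26 to 2.53 FPKM and VTI1B at 6.49 to 7.37 FPKM. The entry of VTI1B is shared with RDH11, so its level beside the others is uncertain.

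**Figure D1:**
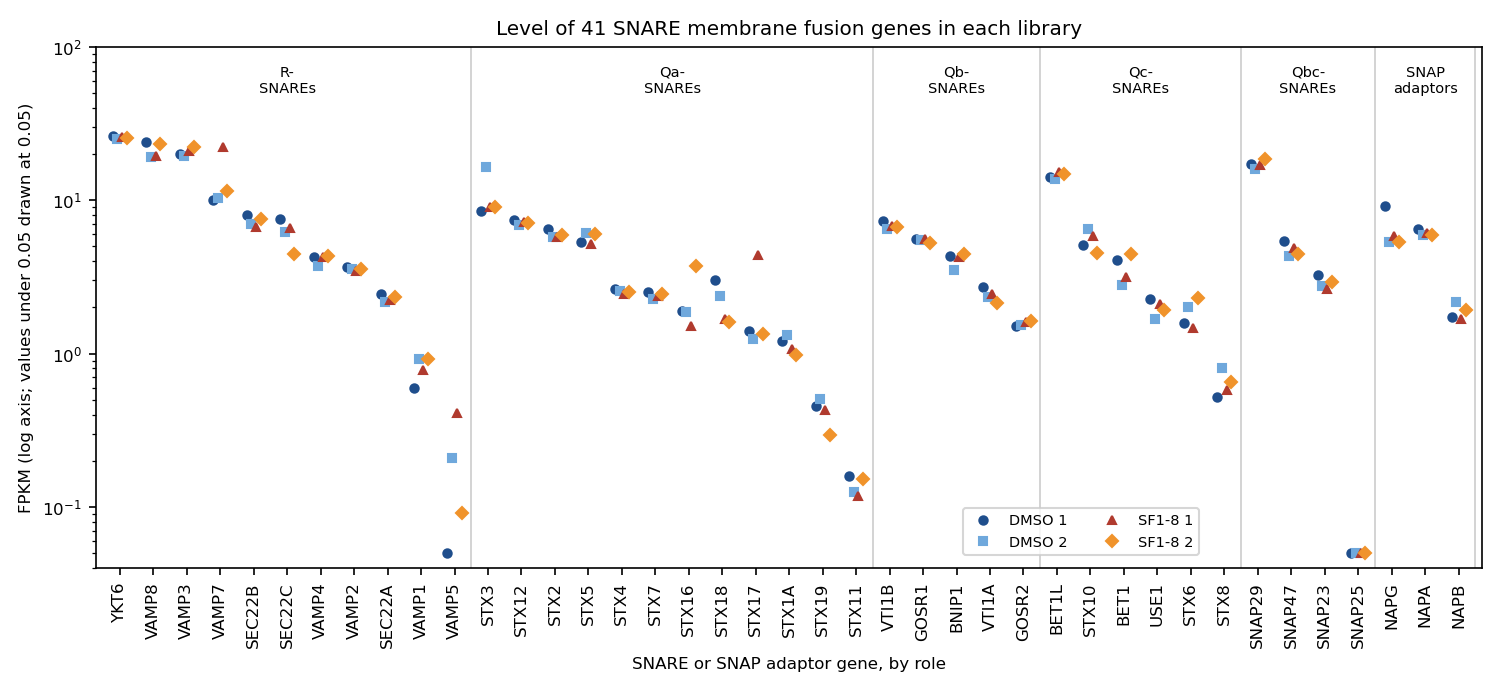
FPKM (log axis) of 41 SNARE and SNAP adaptor genes in each of the 4 libraries, with 1 point per library and genes ordered by role and then by mean level. The points of most genes lie on top of each other, while VAMP7, STX3, STX16 and STX17 each have 1 library apart and counts of 0 (SNAP25 in all libraries, VAMP5 in DMSO 1) are drawn at 0.05.

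Some entries cover more than the member they name, and 8 of the 42 name at least 1 other gene. The entry of VAMP2, the R-SNARE of regulated secretion, spans 22477 bases although the gene itself covers 4398 in GENCODE 29, and it takes in the clock gene PER1. That of SEC22A is shared with PDIA5, that of STX16 with NPEPL1, and that of VTI1B with RDH11. That of GOSR2 spans 126071 bases against 52450 of the gene, and that of STX6 spans 79080 against 50410. The entry of VTI1A runs the other way and covers 91649 of the 371747 bases of the gene. The values of these members can hold reads of the neighbours or miss part of the gene.

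The comparison of SF1-8 with DMSO asks whether the treatment moved the mRNA level of the fusion machinery. Over 26167 tested genes (edgeR, quasi-likelihood, p adjusted by Benjamini-Hochberg), 0 of the 41 tested members had an adjusted p under 0.05, where 0.0420% of all tested genes did, and the smallest adjusted p of a member was 0.882. At an unadjusted p under 0.05, 1 member was lower with SF1-8 and 0 were higher. That is 2.44% of the members for the lower direction against 2.54% of all tested genes, and 0 members against 1.78% for the higher one. DESeq2 also gave 0 members at an adjusted p under 0.05, and 2 at an unadjusted p under 0.05. The median log2 fold change of the 41 members was -0.0073 beside -0.011 over all tested genes. It was below 0 in 21 members and above 0 in 20, against 13510 and 12657 of all tested genes.

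In 30 of the 41 the log2 fold change was under 0.2 in size, and in 4 it was over 0.5. The same shares over all tested genes were not worked out, so these counts show nothing particular to the members. The 95% interval of the fold change lay within a 2-fold change in both directions for 34 members, where 45.9% of all tested genes did so. Among the 35 members with a mean of at least 1 FPKM this held for 30, where 75% of the 14086 tested genes at that level did the same. For YKT6 the log2 fold change was 0.021 (95% interval -0.16 to 0.20), for BET1L 0.13 (-0.058 to 0.33) and for SNAP29 0.11 (-0.086 to 0.31). For the late endosomal Qb-SNARE VTI1B, whose entry is shared with RDH11, it was -0.0087 (-0.21 to 0.19). The 95% interval lay within a change of 1.5 times in both directions for 24 members, YKT6, BET1L, SNAP29 and VTI1B among them, against 30.7% of all tested genes. All 24 had a mean of at least 1 FPKM, so they were 24 of 35 members at that level, against 55.4% of tested genes.

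In FPKM, both SF1-8 libraries lay below both DMSO libraries for 6 members, or 14.6%, against 20.0% of all tested genes. Both lay above for 4 members (GOSR2, BET1L, VAMP3 and VAMP7), or 9.76%, against 14.2%. FPKM runs high in DMSO 1, with a median of 104% of the mean over the 4 libraries. With counts normalized by TMM, a scaling that sets the bulk of genes equal between libraries, 5 members, or 12.2%, were lower and 8, or 19.5%, were higher without overlap, against 18.1% and 17.3% of all tested genes. More members were lower than higher in FPKM, and more were higher than lower after TMM, so the direction of this split depends on the scaling. For VAMP3, the log2 fold change came to 0.17 (standard error, SE, 0.081) with an adjusted p of 0.970 (edgeR).

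**Figure D2:**
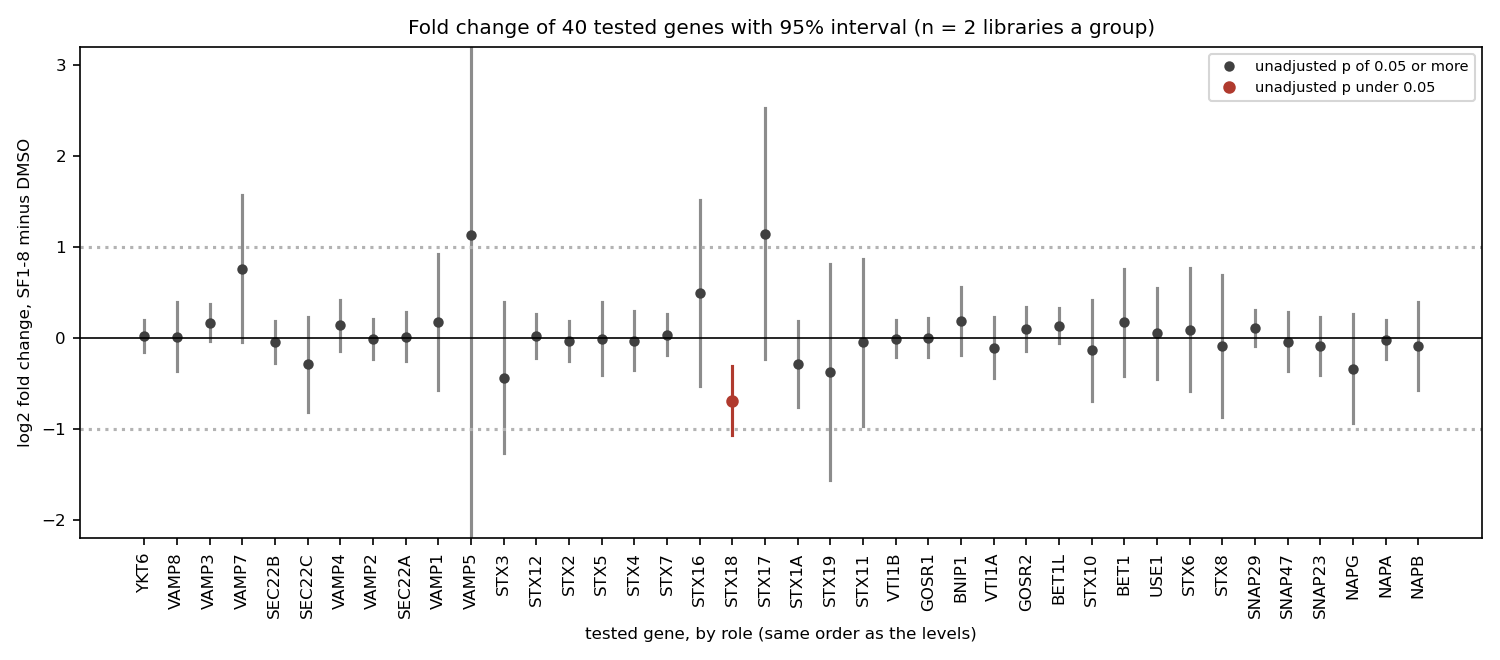
Log2 fold change (SF1-8 minus DMSO) of 40 tested genes, with the 95% interval worked out from the quasi-likelihood F statistic as a bar and dotted lines at a 2-fold change. Only STX18 has an interval that leaves out 0. The intervals of VAMP7, STX17, STX16, STX3, STX19, STX11, STX8, VAMP1 and VAMP5 are the widest, and that of VAMP5 runs beyond the axis at both ends.

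STX18, the Qa-SNARE of the endoplasmic reticulum that receives vesicles returning from the Golgi, was the member with an unadjusted p under 0.05. Its FPKM was 3.02 and 2.39 in DMSO 1 and 2 and 1.67 and 1.60 in SF1-8 1 and 2. Both SF1-8 libraries were thus below both DMSO libraries, and the 2 SF1-8 values were close together. The means were 2.70 ± 0.442 FPKM (SD, n = 2) with DMSO and 1.64 ± 0.0496 FPKM (SD, n = 2) with SF1-8. On the log2 scale the change was -0.69 (SE 0.149; Benjamini-Hochberg adjusted p = 0.882, edgeR quasi-likelihood). The unadjusted p of that test was 0.00520, and after leaving out each library in turn the fold change lay between -0.81 and -0.56 on the log2 scale. Across the 12 alternatives the unadjusted p of STX18 was under 0.05 and its adjusted p lay between 0.0604 (DESeq2) and 1.00. The summed fibroblast markers and the summed erythroid markers given above were also lower in both SF1-8 libraries than in both DMSO libraries. Their part in the result was not tested.

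STX18 lies on chromosome 4 of GRCh38 from 4415742 to 4542031 on the minus strand, which starts and ends close to the gene in GENCODE 29. Its entry overlaps by 3317 bases with NSG1, which runs on the plus strand and had 0.0206 to 0.0478 FPKM in the 4 libraries. The proteins that act with syntaxin 18 at the endoplasmic reticulum were looked at next. BNIP1, the Qb-SNARE of that set, had 4.30 and 3.52 FPKM with DMSO and 4.24 and 4.48 FPKM with SF1-8, with a log2 fold change of 0.19 (95% interval -0.18 to 0.56). USE1, the Qc-SNARE, had 2.27 and 1.69 FPKM against 2.10 and 1.92 FPKM, with a log2 fold change of 0.050 (-0.45 to 0.55). SEC22B, the R-SNARE of traffic between the endoplasmic reticulum and the Golgi, had 7.96 and 7.05 FPKM against 6.74 and 7.50 FPKM, with -0.046 (-0.27 to 0.18). In these 3 the groups overlapped in FPKM, and in TMM-normalized counts BNIP1 was higher with SF1-8 without overlap. The difference between STX18 and its partners was not tested. The tether that catches vesicles at this SNARE set is built of NBAS, RINT1 and ZW10, here named after their values were seen, and their unadjusted p-values in edgeR's quasi-likelihood fit were 0.248, 0.999 and 0.312.

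VAMP7, an R-SNARE with an inhibitory longin domain that serves late endosomes, lysosomes and secretion, was named by the study for a switch between its transcripts. The paper reported that this switch shortens the part that binds PICALM, and reported a transcript switch in PICALM too. Values per gene do not bear on such switches. The FPKM of VAMP7 was 9.99 and 10.3 with DMSO, 22.4 in SF1-8 1 and 11.4 in SF1-8 2. The 3 libraries other than SF1-8 1 lay close together, and SF1-8 1 stood at 2.15 times their geometric mean in TMM-normalized counts. The log2 fold change was 0.76 (SE 0.317; Benjamini-Hochberg adjusted p = 0.970, edgeR quasi-likelihood). It was 0.20 without SF1-8 1 and 1.17 without SF1-8 2. The gene lies in a region at the chromosome ends that X and Y share, and the only entry with its name is on chromosome X from 155881345 to 155943769 in GRCh38. Values are given per gene, and GENCODE 29 lists 3 coding transcripts, which cannot be told apart here.

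STX17, the Qa-SNARE of the autophagosome that pairs with SNAP29 and VAMP8, showed the same kind of pattern. Its FPKM was 1.40 and 1.25 with DMSO, 4.41 in SF1-8 1 and 1.34 in SF1-8 2. SF1-8 1 was at 3.37 times the other 3 libraries, while SF1-8 2 lay between the DMSO values. The log2 fold change was 1.15 (SE 0.543; Benjamini-Hochberg adjusted p = 0.970, edgeR quasi-likelihood), the largest positive value among the members tested, and it was 0.042 without SF1-8 1. Without SF1-8 2 it was 1.77 with an adjusted p of 0.0397 by the same test, the only adjusted p under 0.05 of a member in any setting, and this call rests on SF1-8 1 alone. For its partners SNAP29 and VAMP8 the groups overlapped in FPKM, while in TMM-normalized counts both SF1-8 libraries were above both DMSO libraries for SNAP29 and the groups overlapped for VAMP8.

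STX16 and STX3 each had 1 library apart as well, but not the same one. For STX16, the Qa-SNARE of the trans-Golgi network, FPKM was 1.90 and 1.88 with DMSO, 1.52 in SF1-8 1 and 3.71 in SF1-8 2, and this entry includes NPEPL1. Its log2 fold change of 0.49 (SE 0.401) turned to -0.27 without SF1-8 2 and was 0.99 without SF1-8 1. STX3, a Qa-SNARE of the plasma membrane, had 8.50 FPKM in DMSO 1, 16.5 FPKM in DMSO 2 and 9.11 FPKM in both SF1-8 libraries. Its log2 fold change of -0.44 (SE 0.326) turned to 0.17 without DMSO 2 and was -0.87 without DMSO 1. NAPG, the gamma SNAP adaptor, had 9.16 FPKM in DMSO 1 and 5.33, 5.83 and 5.33 FPKM in DMSO 2, SF1-8 1 and SF1-8 2. Its mean was the highest of the 3 adaptors through DMSO 1 alone, since NAPA was higher in FPKM in the other 3 libraries. Its log2 fold change of -0.34 (SE 0.236) turned to 0.055 without DMSO 1 and was -0.64 without DMSO 2. STX16, STX3 and NAPG each had an adjusted p of 0.970 in edgeR.

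**Figure D3:**
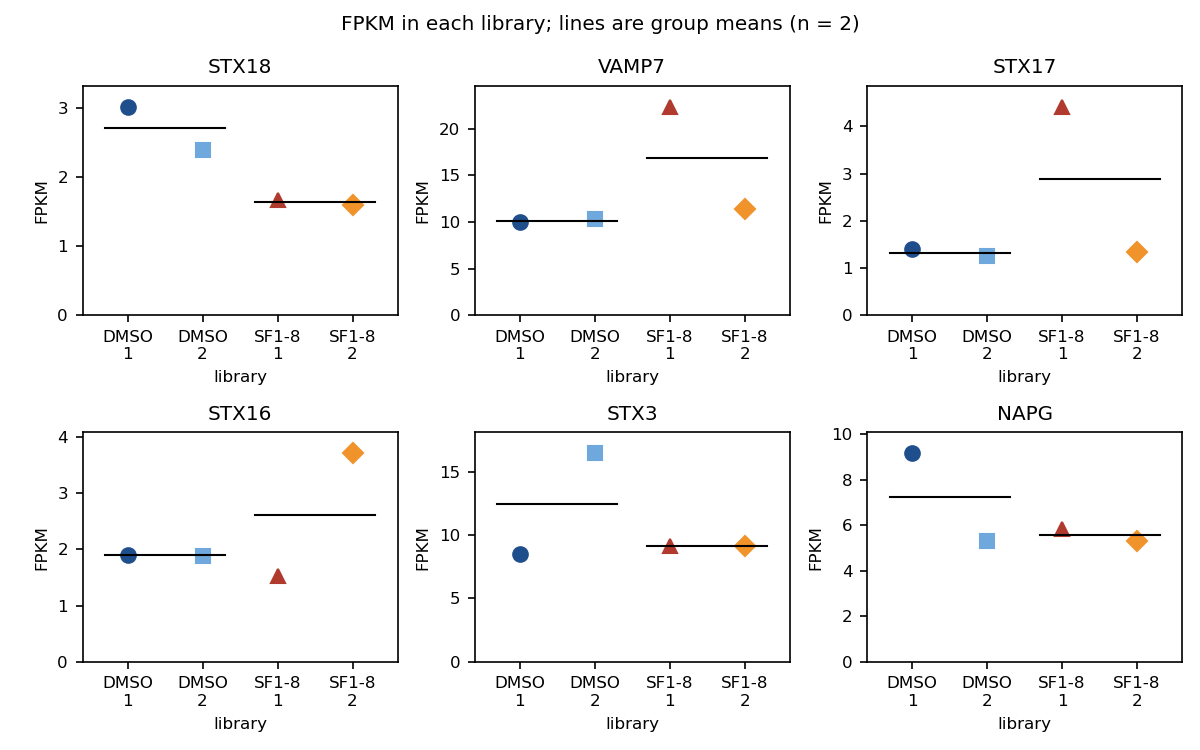
FPKM of STX18, VAMP7, STX17, STX16, STX3 and NAPG in each library (linear axes from 0), with black lines at the means of the 2 libraries of a group. In STX18 both SF1-8 points lie below both DMSO points, and in each of the other 5 genes 1 library lies far above the other 3.

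To count such genes, 1 library was required to be at least 1.5 times above the next, with the other 3 within 1.25 times of each other, in TMM-normalized counts. Both limits were chosen after the values were seen. VAMP7, STX17, STX16 and STX3 met the rule, or 9.76% of the 41 members, against 2.04% of all tested genes. Among genes with a mean of at least 1 FPKM it was 4 of 35 members, against 1.53% of tested genes. The high library was SF1-8 1 for VAMP7 and STX17, SF1-8 2 for STX16 and DMSO 2 for STX3. NAPG was just outside the first limit, with TMM-normalized CPM of 90.4 in DMSO 1 and 60.5 in the next library. STX16 was just inside the second limit, with 32.2 in DMSO 2 and 26.0 in SF1-8 1. The mirror pattern, with 1 library low, was met by 0 members, against 3.69% of all tested genes.

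**Figure D4:**
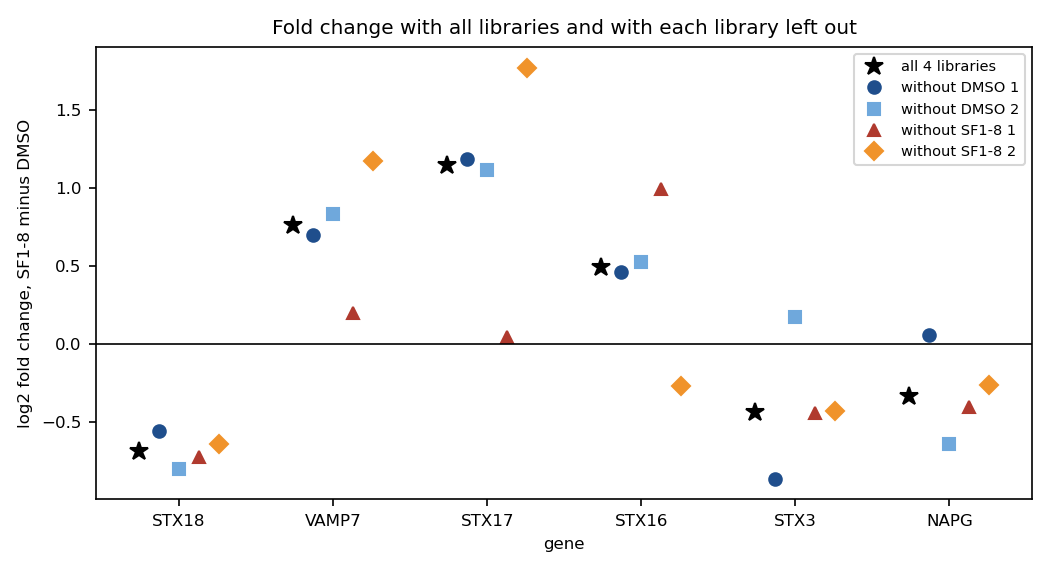
Log2 fold change (SF1-8 minus DMSO) of the same 6 genes with all 4 libraries (star) and with each library left out in turn. STX18 stays between -0.81 and -0.56, whereas STX16, STX3 and NAPG change sign and STX17 drops to 0.042 when the library apart from the others is left out.

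SEC22C, a SEC22 relative of the early secretory pathway, had 7.60 and 6.20 FPKM with DMSO and 6.56 and 4.46 FPKM with SF1-8, so the groups overlapped and SF1-8 2 was the lowest. Its log2 fold change was -0.29 (SE 0.205), and it was -0.030 without SF1-8 2 and -0.60 without SF1-8 1, where the unadjusted p was 0.0088 in the edgeR fit across all genes. STX19, a syntaxin of epithelial tissues, was at 0.453 and 0.505 FPKM against 0.427 and 0.295 FPKM, with a log2 fold change of -0.37 (SE 0.466). VAMP5 had a log2 fold change of 1.13 (SE 1.66) on the counts given above, with groups that overlapped. The adjusted p of SEC22C, STX19 and VAMP5 was 0.970 in each by edgeR's quasi-likelihood test. For 23 of the remaining tested members the fold change lay between -0.29 and 0.18 on the log2 scale, and their unadjusted p between 0.183 and 0.995 in the same fit across all genes.

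The sets that serve 1 step are given side by side in FPKM. The entries of GOSR2 and STX6 run well beyond the gene, so their levels beside the others are uncertain. At the Golgi, STX5, the Qa-SNARE of traffic into the stack, had 5.39 and 6.11 FPKM with DMSO and 5.22 and 6.04 FPKM with SF1-8. Its partner GOSR1 had 5.59 and 5.50 FPKM against 5.59 and 5.30 FPKM, and GOSR2 1.52 and 1.54 FPKM against 1.60 and 1.62 FPKM. BET1, the Qc-SNARE of vesicles from the endoplasmic reticulum, ranged more widely, from 2.81 FPKM in DMSO 2 to 4.43 FPKM in SF1-8 2, and its groups overlapped. At the trans-Golgi network, the Qc-SNARE STX6 had 1.58 and 2.01 FPKM against 1.47 and 2.31 FPKM, and the R-SNARE VAMP4 4.26 and 3.71 FPKM against 4.25 and 4.33 FPKM. In STX5, GOSR1, BET1, STX6 and VAMP4 the groups overlapped in FPKM, and in TMM-normalized counts VAMP4 was higher with SF1-8 without overlap. At the plasma membrane, STX4 had 2.63 and 2.55 FPKM against 2.47 and 2.51 FPKM, and SNAP23, the Qbc-SNARE found outside nerve cells, 3.27 and 2.78 FPKM against 2.64 and 2.92 FPKM. STX4 was lower without overlap in FPKM, with a 95% interval of the log2 fold change from -0.36 to 0.29.

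The proteins that act on SNAREs were described from 4 lists. Of NSF and the SM proteins, which clasp assembling SNAREs, 9 of 9 genes were tested and 1 was lower at an unadjusted p under 0.05, with a median log2 fold change of -0.042. Of 22 further regulators, such as complexins and synaptotagmins, 20 were tested and 0 passed, with a median of 0.033. Of 34 tethers, which catch vesicles before SNAREs engage, all 34 were tested and 2 were lower, with a median of 0.042. Of the 10 partners of VAMP7, among them PICALM and the AP-3 subunits, 0 passed, with a median of 0.039. These values are per gene and do not bear on the transcript switch the paper reported for PICALM. In all, 3 of the 73 tested genes on these lists passed an unadjusted p under 0.05, or 4.11%, against 4.33% of all tested genes.

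The 3 genes that passed an unadjusted p under 0.05 were all lower with SF1-8, and EEA1 alone did so in all 12 alternatives. EEA1, the tether of early endosomes, had 5.20 and 4.62 FPKM with DMSO and 2.63 and 3.14 FPKM with SF1-8, so the groups did not overlap. Its log2 fold change was -0.74 (SE 0.115; Benjamini-Hochberg adjusted p = 0.471, edgeR quasi-likelihood), and with DESeq2 the adjusted p was 0.000808. COG8, a subunit of the Golgi tether COG, had a log2 fold change of -0.44 (SE 0.137; Benjamini-Hochberg adjusted p = 0.970, edgeR quasi-likelihood), with 8.42 and 6.92 FPKM against 4.89 and 6.17 FPKM, and its entry also names PDF, TMED6 and TERF2. Its unadjusted p of 0.0228 rose to 0.0917 without DMSO 1, 0.0809 without SF1-8 1 and 0.0524 in limma with no filter, in fits across all genes. NSF had 9.62 and 7.99 FPKM against 6.45 and 7.39 FPKM, with a log2 fold change of -0.32 (SE 0.114; Benjamini-Hochberg adjusted p = 0.970, edgeR quasi-likelihood). The entry of NSF is shared with its near-identical pseudogene NSFP1, so its level is uncertain. Its unadjusted p of 0.0371 rose to 0.146 without DMSO 1, 0.172 without SF1-8 1, 0.0628 with the replicate block and 0.0602 to 0.0643 in the limma fits across all genes. Of the adaptors that hold NSF to the SNARE bundle, NAPA had 6.51 and 5.98 FPKM against 6.11 and 5.98 FPKM and NAPB 1.73 and 2.18 FPKM against 1.68 and 1.92 FPKM, and the groups overlapped in both.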

How the data were processed

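Total RNA of 4 libraries was depleted of ribosomal RNA and sequenced. The submitters' processing notes name cutadapt, FastQC, Bowtie2, HISAT2, StringTie and the build hg38; versions are not given in the sources used here. The authors deposited 1 table with an estimated count and an FPKM value per gene and library, the latter normalized by length and depth, with 0.0001 in place of 0. The deposited counts were whole numbers, and the commonest value above 0 was 4. The 2095 entries that name no gene, with 0.372% of the counts, were left out. Apart from a factor per library, count and FPKM of a gene kept 1 ratio (largest deviation 0.0207 on the log2 scale, 38 members with at least 100 counts). The same length per gene thus served every library, and the values do not separate transcripts.

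Counts were filtered (filterByExpr), normalized by TMM and tested with edgeR 4.0.16 (quasi-likelihood test) in R 4.3.3, with Benjamini-Hochberg adjustment over 26167 genes. Fold changes are SF1-8 against DMSO. The edgeR fit gives no SE, so it was taken as the size of the log2 fold change over the square root of its F statistic. The 95% intervals were built from this SE with the t distribution. Alternatives were DESeq2 1.42.0, limma 3.58.1 on log2(FPKM + 1) and log2(FPKM + 0.1), no filter, upper-quartile scaling, counts divided by 4, a replicate block and leaving out each library. The scripts were tested on simulated data. Entries were placed on GRCh38 with GENCODE 29. Named genes were VAMP7, members with an unadjusted p under 0.05, the 3 largest positive and negative fold changes and the highest level in each role; STX16, VAMP3, SEC22B, SEC22C, BNIP1 and USE1, and members given by level in their sets, were chosen after their values were seen. Members and lists were chosen with earlier results of these data known. The values of 1 tested member and of 1 erythroid marker are not reported here; the member stays in the counts over all members.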

Additional observations from a re-analysis of the deposited data

How the results depend on the processing

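With 2 libraries a group, 1 library can decide a value, and low genes such as VAMP5 and STX19 had too few counts for a narrow interval. The tested genes past an adjusted p of 0.05 numbered 11, and 163 with DESeq2, 31 with no filter, 1 with limma on log2(FPKM + 1), 0 with limma at 0.1 or without its filter, and 0 to 30 when a library was left out. Members past it numbered 0, and 0 to 1 when a library was left out (STX17 without SF1-8 2). Members lower at an unadjusted p under 0.05 numbered 1 to 2 when a library was left out; members higher numbered 1 with DESeq2 (VAMP7), 2 with no filter (STX17 and VAMP7) and 0 to 2 when a library was left out. Genes of the 4 other lists numbered 5 with no filter, 1 with limma without its filter, and 3 to 7 when a library was left out (7 without DMSO 2). The median of the members was -0.025, -0.029 and -0.023 with limma at 1, at 0.1 and without its filter, and -0.0021 to 0.022 when a library was left out.

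YKT6 had a log2 fold change of -0.0063, -0.0065 and -0.0063 in the same 3 limma fits. Leaving out a library turned the sign of VAMP5 (-0.26 to 6.91, the upper value against a DMSO library at a count of 0), STX3 (-0.87 to 0.17), VTI1B (-0.054 to 0.044), NAPG (-0.64 to 0.055), STX16 (-0.27 to 0.99), USE1 (-0.11 to 0.24) and SEC22B (-0.11 to 0.027). When a group is left with 1 library, that library is assumed to vary like those of the other group. The cause of these changes was not tested.

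The labels do not say whether libraries with the same replicate number belong together. The correlation of the deviations of same-numbered libraries was 0.016 over all tested genes. With 2 pairs, this value cannot decide whether they share a culture or a batch. With the replicate block, 0 genes passed an adjusted p of 0.05 by edgeR, 0 of them members, and STX18 had a log2 fold change of -0.69 with an unadjusted p of 0.0084 in the fit across all genes.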

Other observations

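Besides the 42 entries described, 11 further short entries carry the symbol of 1 of 8 members. Of these, 10 lie within introns and 1 outside the gene (SNAP47), 10 have no strand, and they cover 0 bases of annotated exons. Their summed counts were 427 and 426 in DMSO 1 and 2 and 383 and 366 in SF1-8 1 and 2. The 5 of SEC22A, a SEC22 relative of the endoplasmic reticulum, and STX7, a late endosomal Qa-SNARE, held 158, 18, 60 and 41 counts in the same order. DMSO 1 was thus the highest and DMSO 2 the lowest. In edgeR 7 of the 11 passed the filter on low counts, with 0 at an unadjusted p under 0.05.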
